A study of Homo sapiens with 12 samples.

Results

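The S55A form of PHGDH was compared with its own wild type across the whole transcriptome, over 6 of the 12 libraries of the series. RNA was sequenced from SW1990, a human line derived from a spleen metastasis of pancreatic adenocarcinoma, after 24 h in medium without glucose. In the S55A group the serine at position 55 of PHGDH was replaced by alanine, and WT-2 is the wild-type group that the labels place beside it. Both groups are labelled rPHGDH, which the labels do not explain, and both were deprived of glucose, so no library from cells with glucose enters. Each group had 3 libraries. Whether these came from separate cultures or clones is not stated, so p-values measure the spread between libraries, which may be technical. Of 50868 listed genes, 15521 passed a filter on low counts and were tested.

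PHGDH oxidises 3-phosphoglycerate, a glycolytic intermediate, in the first step of serine synthesis, and serine feeds glycine, folate and nucleotide synthesis. The title of the series places PHGDH in the nucleus under nutrient stress, and the comparison asks which transcripts differ when serine 55 is replaced by alanine, which lacks the hydroxyl group that kinases modify. The reference coding sequence around that codon is shown because it is the position that separates the groups. Codon 55 lies in exon 2 of PHGDH on the plus strand of chromosome 1 (GRCh38, chr1:119721194-119721196). The stretch shown covers chr1:119721179-119721211, and the capitals mark the serine codon.
PHGDH codon 55: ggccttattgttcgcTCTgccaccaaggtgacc

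Total counts per library were 17655119, 13667033 and 16864103 for WT-2 and 18262794, 18661854 and 19100204 for S55A. A floor of 3 counts lay between 0.155 and 0.218 CPM (counts per 1000000 of the library's TMM-adjusted total), which covers counting error only. On the first principal component, with 43.9% of the variance, the groups separated, and on the second, with 19.04%, WT-2 replicate 2 stood apart from the other 5 libraries. It was also the shallowest library. In all, 2488 genes differed (16.0% of those tested; quasi-likelihood test of edgeR at a Benjamini-Hochberg adjusted p under 0.05), 1392 higher in S55A (8.97%) and 1096 lower (7.06%). A further condition of a log2 fold change of at least 1 left 383 genes (2.47%), 201 higher (1.3%) and 182 lower (1.17%), and 4960 genes (32.0%) had an unadjusted p under 0.05. The median log2 fold change of all tested genes was -0.01. The count was 1716 without WT-2 replicate 2, 1344 and 1485 without WT-2 replicates 1 and 3, 1416 and 1372 without S55A replicates 1 and 2, and 2491 without S55A replicate 3. Most family counts below are followed by their range over those 6 fits. The 14 markers of ductal pancreatic carcinoma, of which 12 were tested, summed to 3682 ± 116 CPM in WT-2 against 5002 ± 151 in S55A, with 6 rises and 1 fall. Most of the sum lay in KRT8, KRT18, SOX9, EPCAM, CDH1 and KRT19. Other markers were low: WT-2 and S55A means were 2.6 and 4.11 CPM for KRT7 and 0.678 and 1.79 for MUC1. TFF1 (0.597 and 0.345) and CEACAM6 (0.0483 and 0.311) were too low to test. CLDN4 was at 2.87, 61.6 and 1.84 CPM in WT-2 and averaged 2.24 in S55A. The list was therefore expressed in part in both groups. Below, values are mean ± SD over 3 libraries, log2 fold changes are S55A minus WT-2 with their SE, and adjusted p-values are edgeR's, and a value in brackets after a gene is its log2 fold change. Coordinates are those of GRCh38.

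PHGDH (chromosome 1, 119659798 to 119744215) stood at 738, 706 and 734 CPM in the WT-2 libraries and 364, 359 and 346 in S55A. The groups did not overlap, as in 38.2% of all tested genes, and the log2 fold change was -1.03 ± 0.05 (adjusted p = 7.18e-05). The substitution and the lower level of PHGDH mRNA therefore come together in every comparison below and cannot be told apart.

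**Figure D1:**
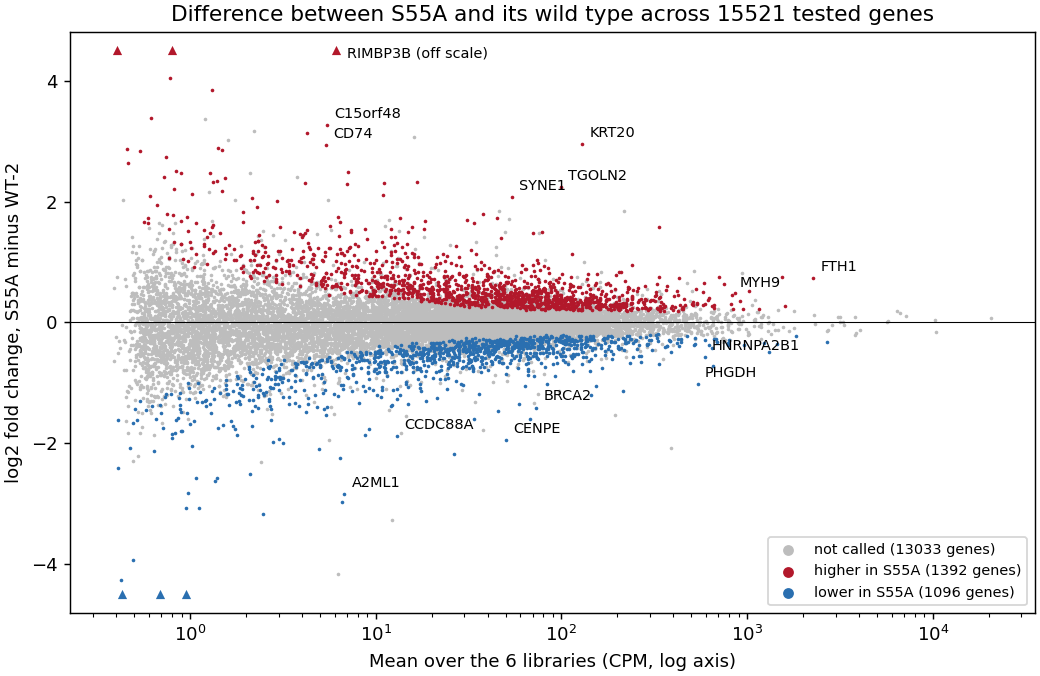
Log2 fold change (S55A minus WT-2) against the mean level over the 6 libraries in CPM (log axis) for the 15521 tested genes; red points are the 1392 genes called higher, blue the 1096 called lower, grey the rest, and triangles lie beyond the axis. PHGDH and HNRNPA2B1 are among the called falls at high level, while KRT20, TGOLN2 and SYNE1 are large rises at intermediate level.

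Among called genes with a symbol at 5 CPM or more whose groups did not overlap, the largest rises joined epithelial genes such as KRT20, a keratin of intestinal epithelium (2.95 ± 0.10), with genes of several other functions. TGOLN2 (chromosome 2, 85318020 to 85328425), an integral protein of the trans-Golgi network, was at 34.6, 31.1 and 37.9 CPM in the WT-2 libraries and 129.8, 201 and 159.7 in S55A (log2 fold change 2.24 ± 0.17, adjusted p = 0.000921). SYNE1 (chromosome 6, 152121684 to 152637801), the giant nesprin that links the nuclear envelope to the cytoskeleton, rose from 20.6 ± 0.599 to 87.2 ± 13.3 CPM (adjusted p = 8.31e-05). CLIC5, a chloride intracellular channel protein tied to the cortical cytoskeleton, rose from 2.13 ± 0.2397 to 12.00 ± 2.35 CPM. HMCN2, a secreted hemicentin, rose from 2.399 ± 0.509 to 11.7 ± 2.23 CPM. APOL6, an apolipoprotein L gene, rose by a log2 fold change of 1.75 ± 0.15 and LIPH, a phosphatidic acid phospholipase, by 1.60 ± 0.17. Of the 20 largest rises, 18 kept their call with any 1 library left out. GRHL3, an epithelial transcription factor (1.73 ± 0.29), lost it without WT-2 replicate 2 (adjusted p = 0.0505). MAFF, a small MAF factor (1.68 ± 0.38), kept its call only without WT-2 replicate 1 among the 6 fits (adjusted p up to 0.109).

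In absolute level the largest rises were those of FTH1, the ferritin heavy chain, KRT8 and SPTBN1, a beta spectrin of the membrane skeleton. FTH1 was at 1716, 1674 and 1727 CPM in the WT-2 libraries and 2829, 2675 and 2991 in S55A (log2 fold change 0.73 ± 0.06, adjusted p = 0.000448), with every S55A library above every WT-2 library. SPTBN1 rose from 838 ± 25.6 to 1207 ± 48.8 CPM, and ASS1, argininosuccinate synthase, from 529 ± 46.8 to 890.1 ± 73.6 CPM. THBS1, the matrix glycoprotein thrombospondin 1, went from 168 ± 15.9 to 501 ± 93.96 CPM (log2 fold change 1.58 ± 0.15). For FTH1, 19.9% of the 50-base windows of its transcripts also occur in another gene and 62.4% of its exonic bases lie opposite another gene. Whether strand was used in counting is not given in the sources used here, so its count may include reads of such genes. Shared windows also made up at least 10% for KRT8, NPM1, HSP90AA1, TUBB, SNHG4, RAB6A, NAMPT and PRSS2. Opposite genes covered at least 10% of the exonic bases of A2MP1, GNAL, SMC4, HNRNPU, DANCR, TUBB, RAB3D, MAP3K12, MYO19, KCNJ8, SLC2A12, GATA6, LHX4, PDK2, MAT2A, GAPDH, PRSS8, HLA-B and LINC01341, of which SLC2A12 (38.9%) and PDK2 (38.6%) had the most.

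By the same rule the largest falls were led by A2ML1, an alpha-2-macroglobulin-like protease inhibitor, at 13.00, 11.1 and 11.6 CPM in the WT-2 libraries and 1.56, 1.47 and 1.91 in S55A (log2 fold change -2.85 ± 0.16, adjusted p = 8.77e-05). A2MP1, an alpha-2-macroglobulin pseudogene also on chromosome 12, fell from 7.695 ± 0.612 to 2.85 ± 0.215 CPM. CCDC88A, an actin- and centrosome-associated scaffold also known as girdin, was at 19.9, 21.97 and 19.4 CPM in the WT-2 libraries and 6.42, 4.47 and 5.79 in S55A. BRCA2 (chromosome 13, 32315474 to 32400266), the recombination mediator, fell from 107 ± 3.59 to 40.1 ± 3.89 CPM (log2 fold change -1.41 ± 0.08, adjusted p = 9.47e-05), and ANKRD12, an ankyrin repeat protein that binds nuclear receptor coactivators, from 85.1 ± 4.34 to 33.5 ± 10.98 CPM. Other falls were those of BTBD3 (-1.59 ± 0.12), ABCC2, an apical organic anion pump (-1.76 ± 0.14), IL17RB, a receptor for interleukin 17 family ligands (-1.33 ± 0.16), RASIP1, a RAS-interacting protein (-1.30 ± 0.18), and FAM111B, a serine protease gene (-1.25 ± 0.11). GNAL, an olfactory G protein alpha subunit (-1.36 ± 0.25), was the only one of the 20 largest falls to lose its call when 1 library, S55A replicate 2, was left out (adjusted p = 0.0545). In absolute level HSPA8, a constitutive heat shock chaperone, fell most, from 3018 ± 78.4 to 2399 ± 106 CPM, followed by NPM1, the nucleolar protein nucleophosmin, from 1529.9 ± 50.5 to 1089 ± 78.6 CPM. After PHGDH came HSP90AA1, a cytosolic chaperone, from 1615 ± 26.9 to 1265 ± 176 CPM, a call that was lost with any library but S55A replicate 3 left out (adjusted p up to 0.12), and EREG, the EGF receptor ligand epiregulin, from 821 ± 54.2 to 497 ± 80.2 CPM.

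Families were described by how many of their tested members were called in each direction, beside the shares of 8.97% and 7.06% over all genes. Calls among chromosome segregation genes were mostly falls. Of 42 kinetochore and centromere genes, 17 fell and 0 rose (10 to 15 fell and 0 rose with 1 library left out), with a median log2 fold change of -0.28. CENPE, a kinetochore-bound kinesin, was at 80.00, 79.3 and 80.5 CPM in the WT-2 libraries and 20.4, 21.3 and 20.8 in S55A, the steepest fall of the group. SGOL2, a shugoshin that protects centromeric cohesion, fell from 19.5 ± 1.64 to 9.59 ± 1.75 CPM, SKA3, a microtubule-binding subunit of the outer kinetochore, from 45.4 ± 4.31 to 29.6 ± 0.764 CPM, and CENPF, a kinetochore and nuclear matrix protein, from 354 ± 7.63 to 258 ± 18.1 CPM. BUB3 and BUB1, checkpoint proteins, were not called (0.02 ± 0.06 and -0.02 ± 0.07).

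Of 65 centrosome and centriole genes, 18 fell and 0 rose (11 to 20 fell and 0 rose with 1 library left out; median -0.19). CEP290, a protein of the ciliary transition zone, was at 101, 104 and 99.9 CPM in the WT-2 libraries and 33.8, 30.9 and 35.9 in S55A, and AKAP9, a large scaffold of the centrosome and Golgi, at 193, 210.3 and 198 CPM in the WT-2 libraries and 82.97, 81.3 and 95.8 in S55A. Both groups of libraries stayed apart for each gene. NIN, the microtubule anchor ninein (-0.58 ± 0.06), CEP78 (-0.73 ± 0.08) and CENPJ, which sets centriole length and is also counted among the centromere genes by its symbol (-0.57 ± 0.08), fell as well. PCM1, a centriolar satellite protein, was not called (-0.04 ± 0.08). Among 33 kinesins, 9 fell and 2 rose (3 to 7 fell and 1 to 2 rose with 1 library left out; median -0.12). KIF20B, a kinesin of late cytokinesis, was at 62.99, 76.4 and 60.5 CPM in the WT-2 libraries and 24.7, 22.7 and 24.6 in S55A. KIF14 (-0.76 ± 0.10) and KIF18A, which dampens chromosome movement (-0.57 ± 0.11), fell, whereas the transport kinesins KIF5B (0.13 ± 0.05) and KIF1C (-0.13 ± 0.06) were not called.

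Among 21 cohesin, condensin and SMC5/6 genes 6 fell and 2 rose (4 to 7 fell and 0 to 2 rose with 1 library left out; median -0.16). SMC6, of the complex that acts at stalled forks and recombination intermediates, fell from 84.2 ± 3.62 to 48.3 ± 8.27 CPM, and the condensin subunits SMC2 and SMC4 fell by 0.52 ± 0.09 and 0.54 ± 0.08 on the log2 scale. SMC1A, a core cohesin subunit, was at 315 ± 4.898 CPM in WT-2 against 299 ± 25.2 in S55A (adjusted p = 0.538). Of 34 dynein and dynactin genes 7 fell and 2 rose (2 to 9 fell and 0 to 2 rose with 1 library left out). DNAH5, a heavy chain of ciliary outer arms present at low level, fell from 3.12 ± 0.404 to 1.27 ± 0.329 CPM, while DYNC1H1, the heavy chain of cytoplasmic dynein, was at 1259.7 ± 84.9 CPM in WT-2 against 1346 ± 62.9 in S55A (adjusted p = 0.375). Tubulins had 1 call each way of 16: TUBB fell from 1387 ± 66.1 to 1090.0 ± 33.9 CPM and TUBB2B rose from 10.3 ± 1.62 to 19.1 ± 0.761 CPM, with 47.9% of its windows shared with other genes.

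Of 35 SR proteins and hnRNPs, 9 fell and 0 rose (7 to 9 fell and 0 rose with 1 library left out; median -0.19). HNRNPA2B1, which binds nascent and exported RNA, was at 713, 707 and 700.0 CPM in the WT-2 libraries and 494, 474 and 450.3 in S55A (log2 fold change -0.58 ± 0.06, adjusted p = 0.000913), with no overlap. HNRNPH1 (-0.55 ± 0.07), HNRNPDL (-0.41 ± 0.07), SRSF5 (-0.41 ± 0.06) and SRSF11 (-0.47 ± 0.09), all regulators of splice site choice, fell, and HNRNPU (-0.11 ± 0.08) and HNRNPK (-0.08 ± 0.06) were not called. Of 44 host genes of small nucleolar and micro RNAs, 10 fell and 0 rose (6 to 14 fell and 0 rose with 1 library left out; median -0.30). SNHG4 was at 24.5, 26.3 and 21.6 CPM in the WT-2 libraries and 9.82, 10.3 and 12.8 in S55A, and SNHG3 fell from 95.00 ± 5.41 to 59.3 ± 6.01 CPM and DANCR from 23.7 ± 0.334 to 14.4 ± 2.07 CPM. GAS5, a host of box C/D snoRNAs, was at 388 ± 30.8 CPM in WT-2 against 349 ± 13.7 in S55A and was not called (adjusted p = 0.187).

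RNA helicases of the DEAD and DEAH boxes were called both ways, 3 up and 5 down of 53 (1 to 3 and 3 to 6 with 1 library left out). DDX46, a spliceosomal helicase, fell from 116 ± 4.77 to 73.4 ± 6.22 CPM and DDX21, a nucleolar one, from 725 ± 8.24 to 597 ± 10.1 CPM, while DDX60, an interferon-inducible helicase, rose from 17.4 ± 0.805 to 25.4 ± 1.01 CPM. Of 29 nuclear pore genes 6 fell and 2 rose (3 to 5 fell and 0 to 1 rose with 1 library left out); TPR, the filament protein of the nuclear basket, fell from 326 ± 5.37 to 208 ± 18.3 CPM. Cytosolic ribosomal protein genes had 8 falls and 0 rises of 83 (median -0.06), and mitochondrial ribosomal protein genes 8 and 0 of 78 (median -0.11). Their shares of falls were 9.64% and 10.3%, against 7.06% of all genes. With 1 library left out they had 1 to 10 and 1 to 5 falls, with upper quartile scaling 15 and 13, and with GC and length offsets 6 and 4. RPL36A (-0.54 ± 0.10) and MRPL16 (-0.49 ± 0.08) kept their calls in all 6 fits with 1 library left out. In the TRiC chaperonin and prefoldin group, which folds actin and tubulin, 5 of 14 fell and 0 rose (1 to 4 fell and 0 rose with 1 library left out). TCP1, a TRiC subunit, went from 187 ± 4.06 to 140.0 ± 9.83 CPM.

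**Figure D2:**
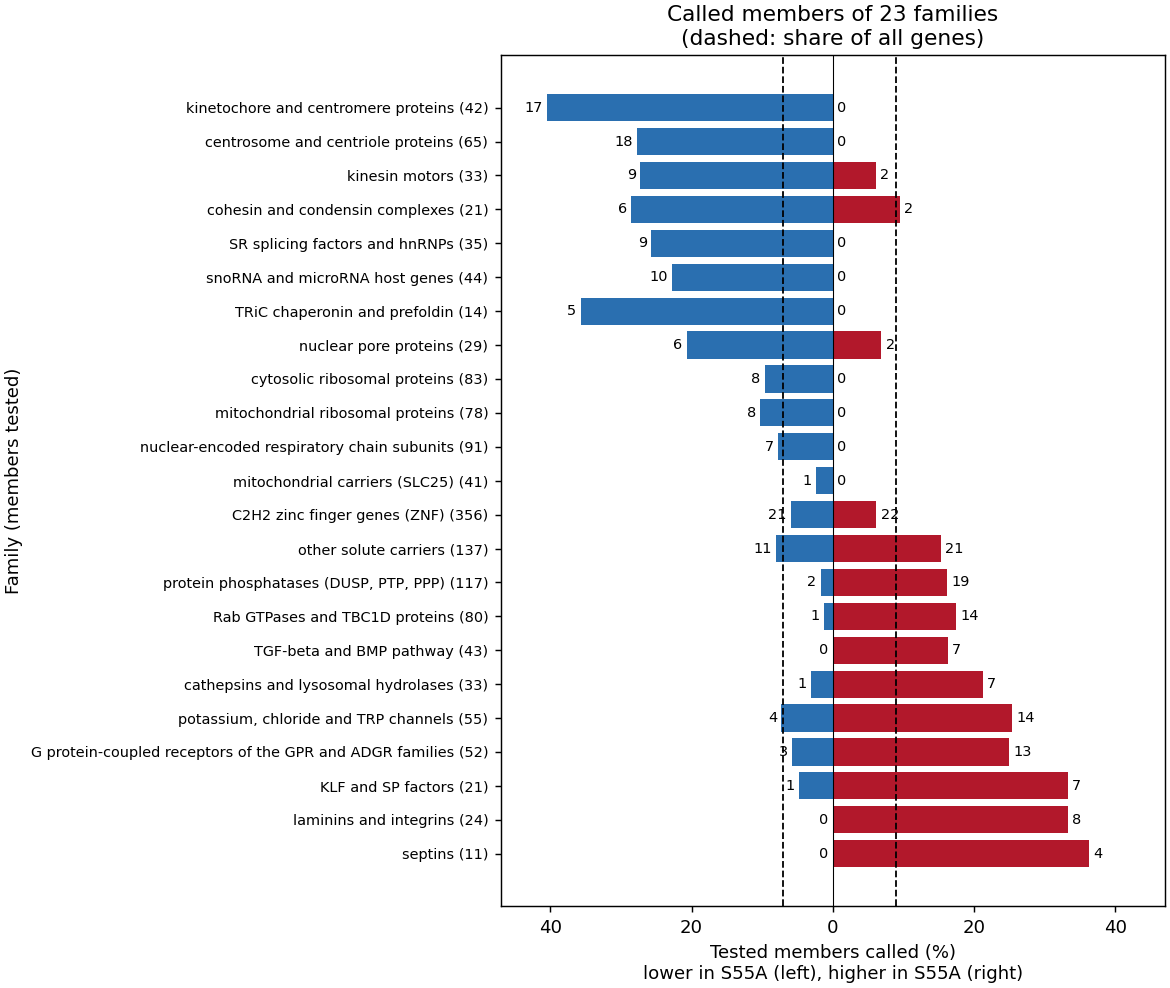
Share of tested members called lower (blue, left) or higher (red, right) in S55A for 23 families, with the number of called members beside each bar and the number tested in brackets; dashed lines mark the shares over all genes, 7.06% lower and 8.97% higher. Kinetochore genes have 17 falls and no rise, and laminins and integrins 8 rises and no fall.

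Calls among myosin, septin and adhesion genes were mostly rises. Of 24 myosin heavy chain genes, 8 rose and 4 fell (6 to 7 and 3 to 4 with 1 library left out). MYO1E, a membrane-binding myosin, rose from 26.3 ± 1.85 to 50.8 ± 2.85 CPM, MYO10, the filopodial myosin, from 185 ± 10.6 to 274 ± 18.2 CPM, and MYH9, nonmuscle myosin IIA, from 698 ± 38.5 to 959 ± 92.95 CPM. MYO1A, the brush border myosin, and MYO19, a mitochondrial myosin, fell (-1.18 ± 0.23 and -0.63 ± 0.09). Of 11 septins, filament-forming GTPases, 4 rose and 0 fell (1 to 3 rose and 0 to 1 fell with 1 library left out), of which SEPT6 (0.46 ± 0.09) was called in all 6 of those fits.

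Of 24 laminin and integrin genes, 8 rose and 0 fell (4 rose by limma-trend on the deposited FPKM values; 3 to 7 rose and 0 to 1 fell with 1 library left out; median 0.20). ITGA9, an integrin alpha chain that binds tenascin and osteopontin, was at 1.46, 1.31 and 1.42 CPM in the WT-2 libraries and 6.75, 8.18 and 5.89 in S55A (log2 fold change 2.30 ± 0.19, adjusted p = 0.000521), with all S55A libraries above all WT-2 libraries. LAMB3, a chain of the epithelial laminin 332, rose from 73.3 ± 9.92 to 128 ± 7.42 CPM, and ITGB4, its hemidesmosomal receptor chain, from 209 ± 14.5 to 273 ± 17.4 CPM. LAMA5 and ITGA6 were not called (0.11 ± 0.07 and 0.10 ± 0.08). Among 35 proteoglycan and heparan sulfate genes 8 rose and 1 fell (5 to 7 rose and 0 to 1 fell with 1 library left out; median 0.01, or -0.01 with upper quartile scaling). SDC4, a syndecan of focal adhesions, rose from 31.04 ± 1.01 to 45.7 ± 4.096 CPM and VCAN, the matrix proteoglycan versican, from 0.676 ± 0.183 to 1.87 ± 0.158 CPM. Of 21 tetraspanins 4 rose and 0 fell (2 to 5 rose and 0 fell with 1 library left out), TSPAN1 among them from 7.82 ± 0.802 to 22.03 ± 5.44 CPM. The 12 fibroblast markers had sums of 22.5 to 31.98 CPM in WT-2 against 27.6 to 44.3 in S55A, and none of the 4 tested was called. Most of the sum was ACTA2, with WT-2 and S55A means of 12.5 and 12.9 CPM, and PDGFRB, with 12.2 and 11.6. Matrix genes among the markers were highest in S55A replicate 2. COL1A1 was at 1.07, 1.23 and 1.96 CPM in WT-2 and 1.897, 5.18 and 2.33 in S55A (log2 fold change 1.14, adjusted p = 0.121), and DCN averaged 0.6903 and 1.97 (adjusted p = 0.27). COL1A2, COL3A1, LUM and POSTN, too low to test, had means of 0.287, 0.228, 0.289 and 0.0563 CPM in WT-2 and 1.32, 0.923, 0.672 and 0.362 in S55A. Their part in the adhesion and matrix counts was not tested. Without S55A replicate 2, 4 laminin and integrin genes and 6 proteoglycan genes rose. In bulk RNA, a change in the share of cells of one kind and in RNA per cell cannot be told apart.

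Calls among phosphatases and several receptor families were also mostly rises. Of 117 protein phosphatase genes 19 rose and 2 fell (12 to 22 rose and 1 to 4 fell with 1 library left out; median 0.10). DUSP5, a nuclear ERK phosphatase, was at 11.7, 8.99 and 11.4 CPM in the WT-2 libraries and 20.2, 22.04 and 26.4 in S55A (adjusted p = 0.00258). DUSP16 and DUSP8, phosphatases of JNK and p38, rose from 119 ± 3.94 to 188 ± 2.18 CPM and from 18.8 ± 0.188 to 29.95 ± 0.553 CPM, and the receptor phosphatases PTPRU and PTPRK from 47.8 ± 4.86 to 92.3 ± 8.99 CPM and from 72.9 ± 3.08 to 103 ± 1.64 CPM. The groups did not overlap for these 5 genes, as in 38.2% of all tested genes. They were named as called members with the smallest p, which favours such separation, so it adds no support. PTPN11, the SHP2 phosphatase, was not called (0.09 ± 0.06, adjusted p = 0.339). In the MAP kinase modules 10 of 63 rose and 3 fell (5 to 8 and 1 to 3 with 1 library left out). MAPK3, the kinase ERK1, rose from 41.9 ± 3.75 to 65.4 ± 4.06 CPM and SPRED2, an inhibitor of RAF activation, from 80.5 ± 5.15 to 126 ± 15.3 CPM, whereas MAP3K12, a neuronal stress kinase of the JNK pathway, fell from 8.79 ± 1.05 to 3.78 ± 1.26 CPM.

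Of 52 genes of the GPR and adhesion receptor families, 13 rose and 3 fell (8 to 13 rose and 1 to 4 fell with 1 library left out; median 0.10). GPRC5A, a retinoic acid-inducible receptor, was at 41.1, 38.6 and 31.8 CPM in the WT-2 libraries and 121, 83.8 and 105 in S55A (log2 fold change 1.48 ± 0.15). ADGRF4, an adhesion receptor, rose from 1.901 ± 0.354 to 5.35 ± 0.704 CPM, and LPAR1, a lysophosphatidic acid receptor, from 19.7 ± 2.45 to 29.97 ± 0.765 CPM. Of 43 TGF-beta and BMP pathway genes 7 rose and 0 fell (3 to 7 rose and 0 fell with 1 library left out; median 0.15): the ligand TGFB1 went from 32.2 ± 2.73 to 50.2 ± 1.12 CPM, LTBP1, which holds it latent in the matrix, from 12.4 ± 1.102 to 19.5 ± 1.71 CPM, and the induced matrix gene TGFBI from 5.46 ± 0.414 to 10.4 ± 1.88 CPM. The signal transducer SMAD4 was at 106 ± 2.79 CPM in WT-2 against 116 ± 26.4 in S55A (adjusted p = 0.641). Ephrins and their receptors had 4 rises and 1 fall of 14 (3 to 4 rises and 0 to 1 falls with 1 library left out), with EFNA1, a membrane-anchored ligand, from 8.21 ± 1.36 to 19.5 ± 0.954 CPM and its receptor EPHA2 from 184 ± 16.1 to 271 ± 14.96 CPM. The median log2 fold change of these 14 genes was 0.05, with 7 below 0. Of 26 FGF, PDGF and VEGF family ligands and receptors, 6 fell and 3 rose (4 to 5 fell and 0 to 2 rose with 1 library left out). FGF9 was at 4.22, 6.31 and 2.904 CPM in the WT-2 libraries and 0.6696, 0.6001 and 0.207 in S55A, and NRP1, the neuropilin coreceptor, and KITLG, the ligand of KIT, fell from 6.57 ± 0.542 to 2.85 ± 0.271 CPM and from 134 ± 7.501 to 83.2 ± 10.2 CPM.

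Rises also outnumbered falls among Rab GTPases and TBC1D proteins, lysosomal hydrolases and V-type ATPase subunits. Golgins and large tethering proteins had 3 rises and 3 falls of 21, with a median of -0.05. With 1 library left out, 1 to 3 of them rose and 1 to 6 fell. Of 80 Rab GTPases and TBC1D proteins 14 rose and 1 fell (9 rose on FPKM; 6 to 12 rose and 0 to 1 fell with 1 library left out; median 0.16). RAB3D, a GTPase of regulated secretion, was at 40.3, 32.7 and 29.1 CPM in the WT-2 libraries and 59.9, 60.01 and 61.6 in S55A, TBC1D9 rose from 29.7 ± 0.532 to 50.5 ± 1.68 CPM and the Golgi GTPase RAB6A from 228 ± 9.102 to 296 ± 5.08 CPM. RAB7A, of late endosomes, was not called (0.23 ± 0.12). Of 33 lysosomal hydrolases 7 rose and 1 fell (5 to 8 rose and 1 fell with 1 library left out; median 0.08). SMPD1, acid sphingomyelinase, rose from 4.37 ± 0.448 to 8.59 ± 0.797 CPM, and PSAP, the precursor of the saposin activators, from 449 ± 25.04 to 568 ± 26.7 CPM, while the dipeptidyl peptidase CTSC fell from 36.5 ± 1.07 to 27.2 ± 0.989 CPM. V-type ATPase subunits, which acidify the lysosome, had 4 rises of 19, none of which kept its call in all 6 fits (0 to 4 rose and 0 fell with 1 library left out).

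Among potassium, chloride and TRP channels 14 of 55 rose and 4 fell (8 to 12 rose and 2 to 6 fell with 1 library left out). Their median log2 fold change was 0.04, with 28 above 0 and 27 below. KCNK5 and KCNK6, background potassium channels, rose from 12.9 ± 1.25 to 22.9 ± 1.54 CPM and from 39.8 ± 1.37 to 62.6 ± 3.69 CPM, and CLCN5, an endosomal chloride-proton exchanger, from 13.8 ± 1.82 to 29.2 ± 2.15 CPM. KCNJ8, a subunit of ATP-sensitive potassium channels, fell from 14.6 ± 0.223 to 6.96 ± 0.586 CPM. Solute carriers outside the amino acid, zinc and mitochondrial classes had 21 rises and 11 falls of 137, against 0 and 1 of 41 mitochondrial SLC25 carriers. With 1 library left out the former had 10 to 16 rises and 4 to 11 falls and the latter 0 to 1 and 0 to 2, and the difference between the shares was not tested. SLC16A3, a lactate exporter, rose from 3.78 ± 0.924 to 10.97 ± 1.97 CPM, SLC48A1, a heme transporter of endosomes, from 31.2 ± 1.47 to 52.5 ± 5.76 CPM, and SLC2A12, a hexose transporter, from 0.4595 ± 0.106 to 2.33 ± 0.179 CPM. SLC5A6, the carrier of biotin and pantothenate, fell from 52.6 ± 4.71 to 34.7 ± 1.44 CPM, and SLC2A1, the main glucose transporter, was at 858 ± 185 CPM in WT-2 against 782 ± 82.1 in S55A and was not called (adjusted p = 0.656). Of 30 ABC transporters 3 rose and 4 fell (2 to 3 and 3 to 4 with 1 library left out): CFTR, the chloride channel of duct epithelium, went from 9.78 ± 0.306 to 18.9 ± 1.41 CPM and ABCB1, the multidrug pump, from 133 ± 5.46 to 99.4 ± 7.31 CPM.

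Transcription factor families were divided. Of 21 KLF and SP factors 7 rose and 1 fell (6 to 8 rose and 0 to 1 fell with 1 library left out; median 0.11). KLF5, a factor of proliferating epithelium, was at 283, 313 and 286 CPM in the WT-2 libraries and 461, 468 and 409 in S55A (adjusted p = 0.00189), KLF9 rose from 9.75 ± 1.604 to 21.6 ± 4.41 CPM and KLF2 from 53.8 ± 1.77 to 83.3 ± 8.91 CPM. SP1 and SP3 were not called (0.06 ± 0.09 and -0.37 ± 0.16). Of 29 nuclear receptors 6 rose and 1 fell (2 to 8 rose and 0 to 1 fell with 1 library left out; median 0.24). RXRA, the shared partner of many of them, rose from 55.9 ± 2.901 to 74.9 ± 1.93 CPM. Of 21 circadian clock genes 5 rose and 0 fell (2 to 6 rose and 0 to 1 fell with 1 library left out), among them BHLHE40, a repressor of the clock, from 28.5 ± 2.11 to 53.3 ± 2.75 CPM, and NFIL3 from 16.4 ± 1.13 to 23.8 ± 1.89 CPM. Homeobox genes were called 5 up and 7 down of 67 (2 to 6 and 3 to 8 with 1 library left out), with MSX2 from 6.58 ± 0.202 to 12.9 ± 0.986 CPM and LHX4 from 7.28 ± 1.501 to 3.37 ± 0.347 CPM. In the SOX, GATA and FOX group 3 of 35 rose and 5 fell (2 to 5 and 2 to 4 with 1 library left out): FOXO1, an insulin-restrained factor, went from 20.4 ± 2.19 to 35.9 ± 1.29 CPM, GATA6, a factor of pancreatic and gut endoderm, from 203 ± 5.75 to 275 ± 5.35 CPM, and SOX9, a ductal factor, from 593 ± 42.3 to 461 ± 20.3 CPM.

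Of 57 lysine methyltransferases and demethylases 11 rose and 4 fell (6 rose and 2 fell on FPKM; 5 to 7 rose and 0 to 3 fell with 1 library left out). Their median log2 fold change was 0.03. KDM2A, KDM4B and KDM7A, demethylases of histone H3, rose from 208 ± 14.3 to 308 ± 11.9 CPM, from 61.2 ± 2.404 to 90.05 ± 2.81 CPM and from 64.4 ± 4.94 to 94.6 ± 0.514 CPM. Among 34 remodelling ATPases and BAF subunits 3 rose and 4 fell (1 to 3 and 2 to 3 with 1 library left out), SMARCA2 from 50.6 ± 1.05 to 75.5 ± 3.56 CPM and ATRX, a remodeller of heterochromatin, from 159.6 ± 1.94 to 99.4 ± 10.6 CPM. Tested histone genes were called in 1 direction, up: 2 of 6 H1 and H2A genes, 4 of 7 H2B genes and 4 of 6 H3 and H4 genes. A further 19, 11 and 23 listed genes of these groups did not pass the filter. The tested H2B genes summed to 13.3 CPM in WT-2 and ranged from -0.54 to 1.24 in log2 fold change. The tested H3 and H4 genes summed to 12.8 CPM in WT-2. HIST1H3E rose from 4.63 ± 0.455 to 9.07 ± 1.24 CPM and HIST2H2BE from 1.87 ± 0.416 to 4.24 ± 0.423 CPM, and these were the only members to keep their call in all 6 fits with 1 library left out (0 to 1, 1 to 4 and 1 to 4 rose in the 3 groups). The C2H2 zinc finger genes, the largest family examined, had 22 rises and 21 falls of 356, or 6.18% and 5.899% (10 to 21 and 8 to 33 with 1 library left out; 12 rose on FPKM). ZNF91, a repressor of SVA retroelements, was at 2.48, 2.68 and 1.896 CPM in the WT-2 libraries and 0.167, 0.491 and 0.465 in S55A (adjusted p = 0.00319), and ZNF28 rose from 11.6 ± 2.31 to 22.8 ± 1.35 CPM.

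Among iron genes the ferritin chains parted: FTH1 rose, as above, and FTL, the light chain, was at 2031, 1865 and 1991 CPM in the WT-2 libraries and 1695, 1605 and 1765 in S55A, a fall (log2 fold change -0.22 ± 0.06, adjusted p = 0.0455) that was lost in 4 of the 6 fits with 1 library left out (adjusted p up to 0.164). Copies of 18.3% of FTL windows occur in other genes. HMOX1, heme oxygenase, rose from 26.9 ± 1.47 to 39.1 ± 4.81 CPM, and TFRC, the transferrin receptor, was at 141 ± 4.03 CPM in WT-2 against 147 ± 29.5 in S55A and was not called (adjusted p = 0.797). Among 21 genes of NAD synthesis and use 5 rose and 0 fell (2 rose on FPKM; 1 to 3 rose and 0 to 1 fell with 1 library left out). Their median log2 fold change was -0.01, with 13 of the 21 below 0. NMNAT2, which makes NAD from nicotinamide mononucleotide, was at 4.28, 3.12 and 3.73 CPM in the WT-2 libraries and 17.4, 16.97 and 20.8 in S55A, while NAMPT, the enzyme before it, was at 153 ± 4.02 CPM in WT-2 against 152 ± 5.35 in S55A and was not called (adjusted p = 0.918).

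Of 24 polyamine, arginine, glutamine and proline genes 4 rose and 0 fell (2 to 5 rose and 0 fell with 1 library left out): ASS1 is given above, and SAT1, which acetylates polyamines for export, rose from 41.7 ± 3.07 to 66.8 ± 2.01 CPM. The median log2 fold change of the 24 was 0.03. In glycogen use, PYGL, the liver form of glycogen phosphorylase, was at 51.9, 50.2 and 48.6 CPM in the WT-2 libraries and 22.9, 23.1 and 20.4 in S55A, whereas PGM1, which interconverts glucose phosphates, rose from 125 ± 3.27 to 171 ± 14.8 CPM. HK2, the inducible hexokinase, rose from 119.5 ± 4.78 to 184 ± 14.3 CPM, and PDK2, a kinase that inhibits pyruvate dehydrogenase, from 8.87 ± 1.696 to 19.7 ± 2.23 CPM. GAPDH and ENO1 were not called (-0.18 ± 0.09 and -0.01 ± 0.13). None of the 13 mitochondrially encoded mRNAs was called (median -0.07, largest fall -0.25), and 7 of 91 nuclear-encoded respiratory chain genes fell, a share of 7.69% (3 to 6 with 1 library left out, 11 with upper quartile scaling). Of 23 serine, glycine and folate genes, 1 rose and 3 fell, PHGDH included (1 to 4 fell and 1 to 2 rose with 1 library left out). ALDH1L1, the cytosolic formyltetrahydrofolate dehydrogenase, rose (0.59 ± 0.10), and MAT2A, which makes S-adenosylmethionine, fell (-0.60 ± 0.06). PSAT1, the next enzyme after PHGDH, was at 588, 598 and 598 CPM in the WT-2 libraries and 567, 564 and 485 in S55A (log2 fold change -0.14 ± 0.07, adjusted p = 0.211). Glutathione and thioredoxin genes had 7 rises and 2 falls of 40 (4 to 9 and 1 to 2 with 1 library left out), with the glutathione transferase GSTM3 from 182 ± 12.9 to 272 ± 30.2 CPM and thioredoxin, TXN, from 250.3 ± 10.5 to 182 ± 4.64 CPM. The median log2 fold change of the 40 was -0.01, with 22 below 0.

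**Figure D3:**
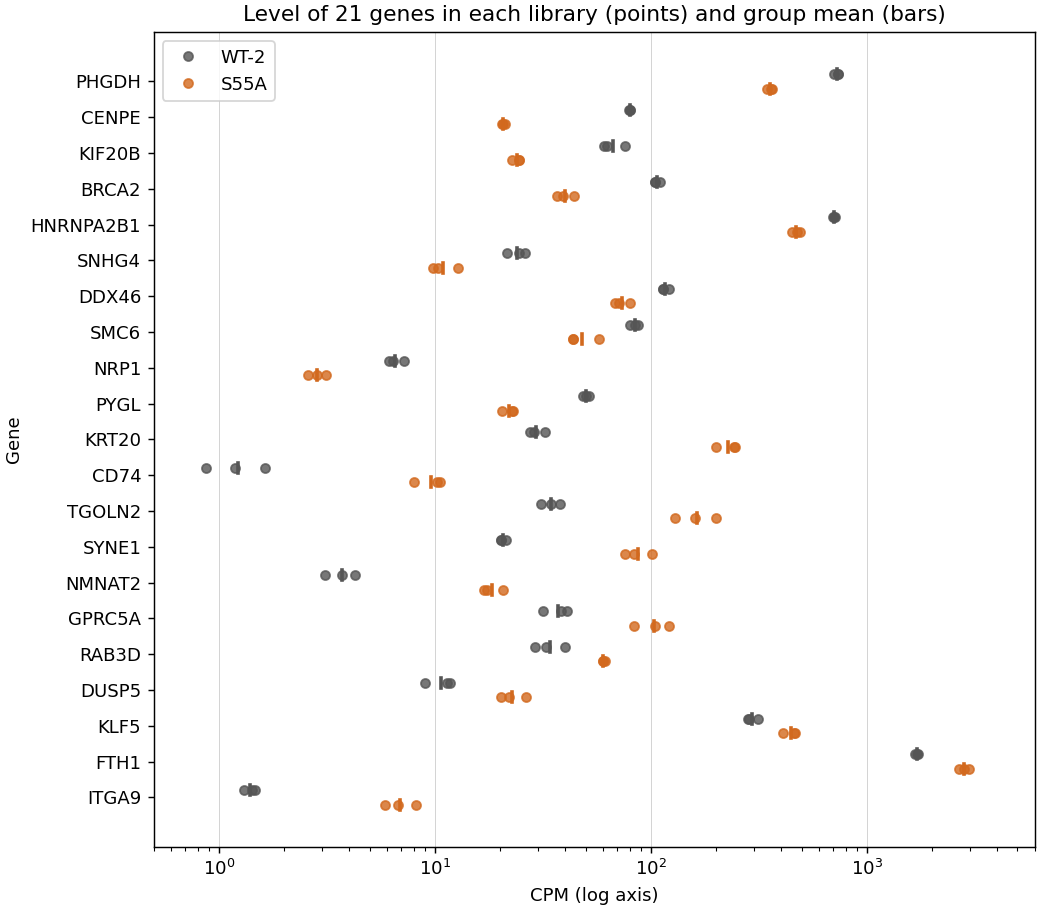
Level in CPM (log axis) of 21 genes in each library; points are the 3 WT-2 (grey) and 3 S55A (orange) libraries and bars the group means. The 21 genes were taken from those called, and their groups do not overlap.

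Calls also differed by transcript type, base composition and level. Of 12626 protein-coding genes 1346 rose and 927 fell, and of 2805 genes of other types 42 rose and 166 fell, with a median of -0.14. Over 10 bins by mean CPM, 2.25% rose and 3.16% fell in the lowest, with a median of -0.12. In the highest of these bins 14.9% rose and 8.05% fell, with a median of 0.02. How far level accounts for the difference between types was not tested. Over 10 bins of equal gene number by GC content, 5.06% rose and 12.6% fell in the lowest bin, and in the ninth 13.04% and 4.15%. Across 15425 genes, which are not independent and share the same 6 libraries, the Spearman correlation of the log2 fold change was 0.14 with GC content and 0.11 with transcript length. With mean CPM it was 0.11 across the 15521 tested genes. A group with low GC and a long inner exon, chosen after its values were seen, stood out in its counts. Of all 3129 protein-coding genes with GC under 42%, 6.97% rose and 11.9% fell. Among the 180 of them with a longest inner exon of 1000 to 3000 bases, 7.78% rose and 13.9% fell. Of 33 protein-coding genes with GC under 42% and an inner exon over 3000 bases, 0 rose and 12 fell (36.4%), against 14 and 7 of 76 at higher GC. BRCA2, ANKRD12, GOLGA4, ASPM, CASP8AP2, TRIP11, ATRX, POLQ, BRCA1, REV3L, RIF1 and CENPF are the 12 that fell. Between 11 and 14 of the group fell with 1 library left out, and 12 with GC and length trends removed from each library. Over all genes that removal gave 1418 rises and 1192 falls.

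**Figure D4:**
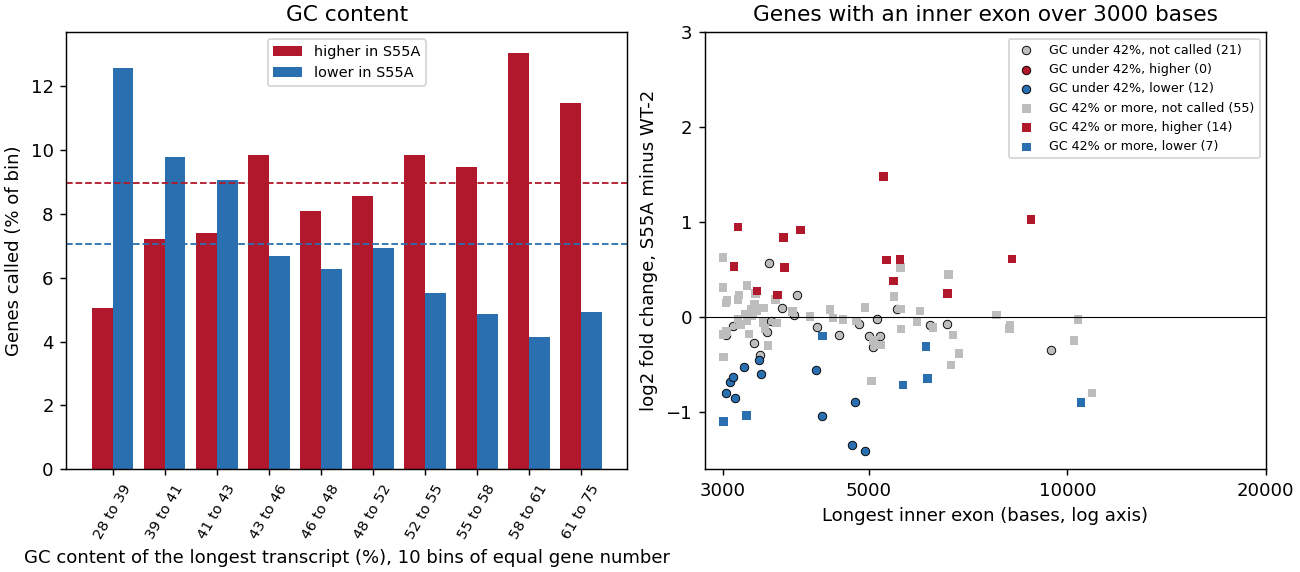
Left, share of genes called higher (red) or lower (blue) in S55A in 10 bins of equal gene number by GC content, with dashed lines at 8.97% and 7.06%; right, log2 fold change against the length of the longest inner exon (bases, log axis) for protein-coding genes with an inner exon over 3000 bases. Circles are the 33 genes with GC under 42%, of which 12 are blue and 0 red.

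RefSeq promoters, from 250 bases before to 50 after each gene's start (GRCh38.p14), matched 10864 tested genes, 1078 that rose and 783 that fell, and 9 motifs were searched. The AP-1 motif TGANTCA, read on either strand, was in 6.86% of promoters of genes that rose, 4.09% of those that fell, 4.14% of those not called and 7.76% of all 27305 promoters. The E2F variant TTTGGCGC was in 0.742%, 2.55%, 0.944% and 0.659% in the same order, and the CCAAT box, CCAAT, in 36.2%, 41.4%, 36.3% and 35.7%. In that order the E2F motif TTTCCCGC was in 2.13%, 3.19%, 2.63% and 1.66%, the TATA box TATAAA in 7.42%, 7.54%, 5.198% and 11.95%, and the interferon-stimulated response element in 3.803%, 2.04%, 2.61% and 3.65%. The E-box CACGTG was in 8.998%, 8.94%, 10.4% and 7.43%, the GRHL motif AACNGGTT in 1.48%, 1.53%, 1.26% and 1.73%, and the GC box GGGGCGGGG in 29.4%, 23.8%, 27.6% and 15.99%. Both strands were read, motifs may overlap, and these shares are descriptions of letters in a window. Of the 20 largest rises, 15 had a promoter in the table and 1, that of HMCN2, held TGANTCA. It is printed as the only such match (plus strand, chr9:130265510-130265809), with the motif in capitals.
HMCN2 promoter: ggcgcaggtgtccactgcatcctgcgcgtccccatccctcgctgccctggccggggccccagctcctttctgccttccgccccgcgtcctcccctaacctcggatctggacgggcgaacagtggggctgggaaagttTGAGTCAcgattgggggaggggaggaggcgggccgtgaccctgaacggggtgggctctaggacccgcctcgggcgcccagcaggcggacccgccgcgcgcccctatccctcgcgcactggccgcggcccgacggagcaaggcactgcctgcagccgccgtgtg

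Of the 10 genes with 0 counts in every library of 1 group and at least 1 CPM in the other, 2 had reads in all 3 libraries of that other group. RIMBP3B (chromosome 22, 21383374 to 21389478), a copy of a gene of the sperm manchette, had 219, 245 and 217 counts in S55A and 0 in each WT-2 library. With each WT-2 library set to the floor of 3 counts, RIMBP3B was at least 65.2-fold higher in S55A. Copies of 98.2% of its windows lie elsewhere, and its near-identical copy RIMBP3C stood at 0.563, 0.363 and 0.237 CPM in the WT-2 libraries and 0.558, 0.382 and 0.517 in S55A. The assignment of reads between the copies is therefore uncertain. The other gene, the clone-named RP11-297P16.4, had 26, 36 and 27 counts in WT-2 and 0 in S55A, at least 11.7-fold lower in S55A.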

How the data were processed

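The deposited table of experiment 2 holds whole-number counts of reads or fragments per gene and FPKM values made by the authors. In 11738 genes with at least 50 counts in each library, the count divided by FPKM and library total was compared across the 6 libraries. It was constant for each gene within a relative deviation of 1.1e-05. The gene lengths behind the FPKM values were not checked. Tools in the submitters' processing notes are edgeR, HISAT2 2.0.4, CASAVA and StringTie 1.3.0, with GRCh38 and mm10 as builds. How counts were assigned, with which annotation and strand setting, is not given in the sources used here. Columns headed WT rPHGDH and rPHGDH S55A were mapped by sample title. Genes were filtered with filterByExpr and tested with edgeR 4.0.16 in R 4.3.3 (TMM factors, robust quasi-likelihood F test, Benjamini-Hochberg at 0.05) over the 6 libraries. The SE of a log2 fold change was taken from it and its F. Counts were also simulated from these libraries with 200 genes changed, a smaller share than the 16.0% called in the data. In the simulation 65.7% of genes changed by a log2 of 1 were recovered, 19.2% at 0.5, and 0.053% of the unchanged were called. Depth was 13667033 to 19100204 counts per library.

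Named genes were PHGDH, the 20 largest rises and falls at 5 CPM or more without overlap, the 10 largest in CPM each way, up to 6 called and 2 uncalled members of each family, genes at 0 in 1 group and the markers. The members and lists were chosen with earlier results of these data known. Families, 83 with at least 5 tested members, came from symbols. GC, length, exons and overlaps came from GENCODE 29, promoters from RefSeq. The 28 names that a spreadsheet had turned into dates were restored from gene IDs. Other settings tried were DESeq2 1.42.0, RLE and upper quartile scaling, limma-voom (limma 3.58.1), no filter, 1 CPM in 3 libraries, limma-trend on the deposited FPKM, the replicate number as a block, GC and length offsets, and each library left out. The table of experiment 1 was not analysed here, and 1 family and a few named genes are not reported here.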

Additional observations from a re-analysis of the deposited data

How the results depend on the processing

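PHGDH was called lower under every alternative run, with a log2 fold change between -1.05 and -1.003, and no named gene reversed. Leaving out 1 library gave 1344 to 2491 calls, 783 to 1319 higher and 561 to 1172 lower, and 9 to 14 genes at 0 counts in 1 group. Deviations of same-numbered libraries had correlations of -0.003, -0.048 and -0.051, and those of differently numbered libraries -0.013 to 0.066. With 3 libraries a group, these values cannot show whether the numbers pair libraries. With the replicate block 1632 genes were called, 906 higher and 726 lower, and 1687 (926 and 761) with GC and length offsets as well. The other alternatives gave 2094 to 2610 calls, and upper quartile factors put 49.3% of calls higher, against 55.9%. Of 454 named called genes, 92 missed the threshold with the block, 36 to 140 with 1 library left out and 0 to 48 under the other unblocked alternatives; of 164 named uncalled genes, 0 to 12 passed it under 1 alternative or another. Of 168 counts over families, 30 to 87 moved by over 1.5 times with 1 library left out, 59 with the block and 0 to 35 under the other unblocked alternatives; the cause was not tested. Most changes of 0.5 on the log2 scale were not detectable in the simulation, where only 200 genes were changed. In the data 2488 genes were called, with a median absolute log2 fold change of 0.499 among them. The simulated recovery therefore does not measure sensitivity here, and an uncalled gene is not shown to be unchanged.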

Other observations

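Of 56 secreted and membrane proteases 11 rose and 4 fell (5 to 11 rose and 2 to 5 fell with 1 library left out; median 0.18). PRSS8, the epithelial protease prostasin, was at 19.03, 15.6 and 16.2 CPM in the WT-2 libraries and 64.1, 61.2 and 52.1 in S55A, and KLK7, a kallikrein of cornified epithelium, rose from 16.8 ± 0.466 to 30.5 ± 3.798 CPM. PRSS2, a trypsinogen, fell from 4.802 ± 0.6300 to 1.26 ± 0.154 CPM. Complement and coagulation genes had 1 rise and 2 falls of 21. Among 21 antigen presentation genes 4 rose and 0 fell (3 to 4 rose and 0 to 1 fell with 1 library left out): CD74 was at 1.63, 0.8701 and 1.19 CPM in the WT-2 libraries and 10.5, 10.2 and 8.01 in S55A, HLA-B rose from 22.4 ± 1.05 to 38.6 ± 1.82 CPM and HLA-E from 70.7 ± 5.19 to 91.8 ± 2.74 CPM. The leukocyte markers had sums of 11.02 to 14.6 CPM in WT-2 against 10.95 to 14.5 in S55A, none of the 2 tested was called, and CD3D, CD3E, CD2 and CSF1R were among those at 0 counts in all 6 libraries. Of 31 interleukin genes 5 rose and 3 fell (3 to 5 and 2 to 3 with 1 library left out), with the cytokine LIF from 30.3 ± 3.93 to 49.7 ± 2.44 CPM, CSF1 from 2.202 ± 0.725 to 6.31 ± 0.813 CPM and the receptor IL20RB from 3.804 ± 0.504 to 1.79 ± 0.151 CPM.

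Mucin and trefoil genes were called both ways. TFF3, a trefoil peptide of goblet cells, rose from 2.19 ± 0.463 to 6.13 ± 1.33 CPM and AGR2, a disulfide isomerase needed for mucin folding, from 324 ± 9.06 to 539 ± 37.9 CPM, whereas MUC6, a gastric gland mucin, fell from 17.8 ± 1.02 to 8.32 ± 1.22 CPM and FCGBP, a mucus protein, from 11.6 ± 1.02 to 5.57 ± 1.32 CPM. Of 13 genes of this family 5 rose and 3 fell (3 to 4 and 2 to 3 with 1 library left out). Of 53 glycosyltransferases 5 rose (9.43%) and 4 fell (7.55%), near the 8.97% and 7.06% of all genes (5 to 8 and 3 to 4 with 1 library left out). B4GALT1, a galactosyltransferase, was at 50.7, 51.5 and 48.5 CPM in the WT-2 libraries and 98.2, 106 and 93.9 in S55A. B3GNT3 rose from 3.89 ± 1.13 to 10.9 ± 1.75 CPM, and FUT1, which makes the H antigen, fell from 116 ± 7.23 to 85.3 ± 4.01 CPM. Of 22 intestinal genes 6 rose and 3 fell (4 to 7 and 1 to 2 with 1 library left out), with PHGR1 from 5.55 ± 0.283 to 27.9 ± 9.005 CPM and EPS8L3 from 21.8 ± 2.99 to 37.3 ± 0.724 CPM among the rises. The 14 acinar and endocrine markers summed to 31.7 ± 2.44 CPM in WT-2 against 42.4 ± 1.97 in S55A, with 7 at 0 counts, and of the 3 tested BHLHA15 rose and PRSS1 fell. Most of the sum was BHLHA15, with WT-2 and S55A means of 23.2 and 37.7 CPM. PRSS1 (5.63 and 2.6) and CEL (2.8 and 2.04, not called) were lower in S55A, so the list did not rise as a whole. The 10 endothelial markers had sums of 1.41 to 2.68 CPM in WT-2 against 1.91 to 2.51 in S55A with no call among the 1 tested, and the 10 hepatocyte markers to 4.74 to 6.19 and 4.25 to 5.02, of which SERPINA1 rose and ALB fell; the call of SERPINA1 was lost with any library but S55A replicate 3 left out. Long non-coding LINC genes were called 10 up and 10 down of 203 (4 to 8 and 3 to 15 with 1 library left out), LINC00346 from 4.72 ± 0.273 to 11.4 ± 2.34 CPM and LINC01341 from 3.98 ± 0.501 to 1.47 ± 0.268 CPM.

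Some genes stood at separate levels within a group, and these were chosen after their values were seen. Among 11512 tested genes averaging 5 CPM or more, 158 had a highest library at least 3 times the lowest within WT-2 or within S55A, with levels under the floor raised to it. TXNDC5, a disulfide isomerase, was at 388, 103 and 380.4 CPM in the WT-2 libraries and 92.8, 105 and 102 in S55A. The read-through model BLOC1S5-TXNDC5, which covers the same exons, was at 0, 285 and 0 CPM in the WT-2 libraries and 344, 354 and 313 in S55A. Their sum was 388, 388 and 380.4 CPM in the WT-2 libraries and 437, 459 and 416 in S55A, so the sum varied less than either part. ERCC5 and BIVM-ERCC5 showed the same division, with WT-2 replicate 2 alone among the WT-2 libraries having reads on the read-through model (74.97 CPM). ZNF664 stayed under the ratio of 3 in both groups and is not among the 158. It was at 609.9, 651 and 622 CPM in the WT-2 libraries and 91.5, 89.2 and 263 in S55A and missed the threshold for a call (log2 fold change -2.08 ± 0.51, adjusted p = 0.0595).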
